A study of Mus musculus with 6 samples.

Results

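The mRNA levels of 9 histone acetyltransferase genes, of 19938 genes tested, were measured in a murine prostate cancer model, in cells given valproic acid (VPA) and in control cells. The genes were Kat2a, Kat2b, Ep300, Crebbp, Kat5, Kat6a, Kat6b, Kat8 and Hat1, chosen by name with earlier results of these data known. Each was read from the probe set annotated with exactly 1 symbol that had the highest mean over the arrays, and each of the 9 had 1 such probe set. VPA, an antiepileptic drug, inhibits histone deacetylases of class I. The 3 VPA and 3 control samples are called biological replicates in the labels, and each has its own Affymetrix array of the mouse Gene 1.0 ST type. The sources used here state neither the dose and duration of VPA nor the name of the cell line. The samples titled VPA carry a strain field of Stra8-EGFP/Rosa26 and a cell type field of undifferentiated stem cells, and the samples titled control carry 129SV and differentiated stem cells. These fields disagree with the titles and with the design of the series. They divide the samples along the same groups, so if they held, strain and cell type could not be told apart from VPA. The titles set the groups, so every VPA minus control difference rests on them.

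Acetyltransferases move the acetyl group of acetyl-CoA onto lysines of histones and other proteins, and the deacetylases that VPA inhibits remove it. The family of Kat2a (GCN5), Kat2b (PCAF) and Hat1 shares one catalytic fold. The paralogs p300 (Ep300) and CBP (Crebbp) form a second family, and the MYST family holds Kat5 (TIP60), Kat6a (MOZ), Kat6b (MORF) and Kat8 (MOF). Nearly all work inside larger complexes that set which lysines they reach. In prostate cancer p300, CBP and TIP60 are known as coactivators of the androgen receptor.

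The arrays held log2 values after RMA normalization, with medians over 35556 probe sets from 7.15 to 7.16 in the VPA arrays and from 7.16 to 7.18 in the control arrays. Their number limits the precision, and the median standard error of a log2 difference was 0.101. Of 11 listed genes of prostate epithelium 9 were measured, and none passed the test. Their mean log2 value ran from 6.36 to 6.44 in the VPA arrays and from 6.31 to 6.53 in the control arrays. Within the list the averages over the VPA arrays ran from 3.50 for Pbsn to 7.93 for Hoxb13. The keratin gene Krt8 averaged 7.44 ± 0.17 in VPA arrays and 7.75 ± 0.31 in control arrays, and the adhesion gene Epcam averaged 6.14 ± 0.04 and 5.84 ± 0.06 (log2 value, SD, n = 3 each). The androgen receptor gene was not analysed here. The deposited values carry no detection call, so whether a gene at such a level is expressed cannot be read from them. Of 9 fibroblast genes 1 rose, none fell and 8 did not pass, and their mean log2 value ran from 9.56 to 9.71 in the VPA arrays and from 9.51 to 9.63 in the control arrays. Within the list the averages over the VPA arrays ran from 4.15 for Lum to 14.03 for Dcn. Thy1, which encodes a cell surface protein held by a lipid anchor, rose by 0.99 (adjusted p = 0.00973). Col3a1 and Pdgfrb differed by -0.46 and -0.36 (adjusted p 0.159 and 0.0923), and Col1a1 and Col1a2 by 0.20 and 0.21 (adjusted p 0.395 and 0.396). Of these 9 genes 5 were below 0. Of the 10 pluripotency genes none passed. Their mean log2 value ran from 6.74 to 6.93 in the VPA arrays and from 6.96 to 7.08 in the control arrays. Sox2 averaged 11.26 in VPA and 11.58 in control arrays and Klf4 10.33 and 10.22, which lifts this mean. Pou5f1 averaged 5.27 and 5.63, Nanog 6.14 and 6.35, and Zfp42, the lowest of the list, 4.22 and 4.36. Of these 10 genes 9, all but Klf4, were below 0, against 58.6% of all genes tested, with a median difference of -0.16. By unadjusted p under 0.05 in limma's test 3 were lower, against 8.3% of all genes, and 0 higher, against 9.82%. The germ cell gene Stra8 averaged 4.54 and 4.59, a difference of -0.06. The part of these shifts in the values below was not tested.

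None of the 9 acetyltransferase genes passed the moderated test of limma at an adjusted p under 0.05, where 2.34% of all genes tested did (0.632% lower and 1.71% higher with VPA). However, 4 genes were lower on every VPA array than on any control array, namely Kat2b, Crebbp, Kat5 and Kat8. That is 4 of 9 (44.4%), against 12% of all genes tested whose groups did not overlap in this direction. The same 4 genes had an unadjusted p under 0.05 with lower values, against 8.3% of all genes, and none had it with higher values, against 9.82%. No member was higher on every VPA array, against 11.1%. The median difference of the 9 was -0.15 on the log2 scale, against -0.035 over all genes tested, and 7 of the 9 were below 0, against 58.6% of all genes. Because the 9 were chosen with earlier results of these data known, these shares describe them and are no test. In a bulk sample a lower value can mean less RNA per cell or fewer cells that make it, and these cannot be told apart. Each 95% interval holds for its own gene and not for the 9 together. Their outermost ends were 0.676-fold and 1.24-fold. By the same fit the cyclin D2 gene Ccnd2, named in the title of the series, rose by 1.34 on the log2 scale (adjusted p = 0.0175). Leaving out control replicate 1 or 3 or VPA replicate 1 or 2 ended that call (adjusted p 0.0719, 0.0682, 0.058 and 0.0608).

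**Figure D1:**
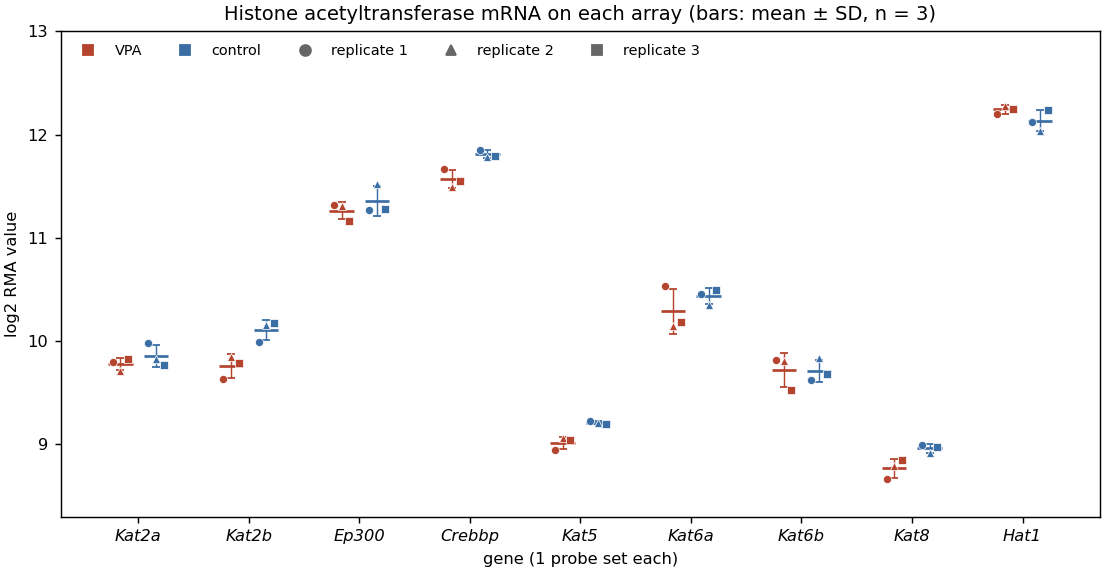
Log2 RMA value of each acetyltransferase gene (x axis) on each array. VPA arrays are red and stand left of the blue control arrays, marker shapes give the replicate number, and bars show the mean ± SD (n = 3); the red and blue points do not overlap for Kat2b, Crebbp, Kat5 and Kat8. Heights of different genes are not comparable, since each has its own probe set.

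The promoters of these 4 genes are shown because their values lay on one side together. The sequences are from RefSeq, build GRCm38.p6, and cover 250 bases before to 50 bases after a transcript start, at chr17:53566721-53567020 (plus strand), chr16:4213355-4213654 (minus strand), chr19:5610045-5610344 (minus strand) and chr7:127912267-127912566 (plus strand). Capitals mark matches on either strand to 6 short motifs, namely the GC box GGGCGG, the CCAAT box CCAAT, the cyclic AMP element TGACGTCA, the E box CACGTG, the ETS site CCGGAAGT and the TATA box TATAAA. Where matches of one motif overlap they are joined in 1 run.
Kat2b: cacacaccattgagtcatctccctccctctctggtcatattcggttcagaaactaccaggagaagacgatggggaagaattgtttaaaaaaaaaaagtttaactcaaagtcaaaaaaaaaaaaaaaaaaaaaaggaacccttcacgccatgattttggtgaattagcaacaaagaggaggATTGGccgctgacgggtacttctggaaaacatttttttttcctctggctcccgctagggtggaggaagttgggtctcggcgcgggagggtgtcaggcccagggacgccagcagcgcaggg
Crebbp: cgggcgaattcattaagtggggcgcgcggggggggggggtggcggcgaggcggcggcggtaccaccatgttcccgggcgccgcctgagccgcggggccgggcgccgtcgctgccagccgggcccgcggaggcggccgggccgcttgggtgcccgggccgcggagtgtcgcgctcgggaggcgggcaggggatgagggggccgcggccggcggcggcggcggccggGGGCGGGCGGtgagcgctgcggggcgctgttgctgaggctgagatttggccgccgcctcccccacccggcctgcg
Kat5: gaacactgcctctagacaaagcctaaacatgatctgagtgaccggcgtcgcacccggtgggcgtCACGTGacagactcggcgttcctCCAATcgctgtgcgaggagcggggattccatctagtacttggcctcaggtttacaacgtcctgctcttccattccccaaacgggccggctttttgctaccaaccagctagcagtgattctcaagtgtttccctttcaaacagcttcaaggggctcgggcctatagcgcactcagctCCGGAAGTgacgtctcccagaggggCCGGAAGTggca
Kat8: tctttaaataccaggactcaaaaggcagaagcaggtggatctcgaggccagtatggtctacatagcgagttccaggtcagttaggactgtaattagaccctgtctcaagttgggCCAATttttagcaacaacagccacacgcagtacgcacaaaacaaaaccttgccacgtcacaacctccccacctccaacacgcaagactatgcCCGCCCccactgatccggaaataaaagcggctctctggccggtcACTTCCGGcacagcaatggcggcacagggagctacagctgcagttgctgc
The 4 promoters held no motif in common. Crebbp has 2 overlapping GC boxes and none of the other motifs, in a window of 82% G and C with 49 CpG pairs, where the median of 32851 such windows is 7 CpG pairs. Kat2b has 1 CCAAT box alone, at 47% G and C with 11 CpG pairs, and also holds a run of A. Kat5 has 2 ETS sites just after the start, with 1 E box and 1 CCAAT box farther upstream. Kat8 has 1 ETS site at the start, 1 GC box and 1 CCAAT box. Of all windows 35.7% hold a GC box, 37.4% a CCAAT box, 7.15% an E box and 3.89% an ETS site. Hat1, which was not lower with VPA, also holds 1 ETS site, 1 E box, 1 CCAAT box and 1 GC box. Windows were found for 8 of the 9 genes, all but Kat6a. None of them held a TATA box or a cyclic AMP element, which occur in 13.6% and 1.79% of all windows. For Kat2b, Kat5, Kat6b and Kat8 the table lists a further start, and the first listed was taken for the sequences above. The further window of Kat5 held 3 GC boxes and none of the other motifs. That of Kat8 held 1 GC box, 2 CCAAT boxes and no ETS site, and that of Kat2b none of the 6 motifs. The motifs given for these 3 genes thus depend on the start taken. These matches describe letters only.

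Kat2b encodes PCAF, which acetylates histone H3 and p53 in the SAGA and ATAC coactivator complexes. Its log2 values were 9.63, 9.85 and 9.79 in VPA replicates 1, 2 and 3, against 10.00, 10.15 and 10.18 in control replicates 1, 2 and 3. VPA replicate 1 lay lowest, and the gap between the groups lay between VPA replicate 2 and control replicate 1. The difference was -0.35 (SE 0.0955, 95% interval -0.57 to -0.14), which is 0.784-fold, with an adjusted p of 0.0949. Among all genes tested, 2.5% had a lower difference than Kat2b. The 3 named genes whose values over the 6 arrays were most like those of Kat2b, each centred on its own mean, were the nicotinic receptor gene Chrna9, the olfactory receptor gene Olfr1391 and Parva, which encodes the actin-binding protein alpha-parvin. Their root mean square differences from Kat2b were 0.0252, 0.0363 and 0.0442 on the log2 scale, over arrays that all of them share. None of the 3 passed the test (adjusted p 0.104, 0.146 and 0.153). Since they were picked for their likeness to Kat2b, these results are not separate from its own. Chrna9 averaged 6.17 in VPA and 6.51 in control arrays, Olfr1391 5.16 and 5.45, and Parva 12.03 and 12.35.

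Kat2a encodes GCN5, the paralog of PCAF that takes the same place in these complexes. It had log2 values of 9.80, 9.71 and 9.83 in VPA replicates 1, 2 and 3, against 9.98, 9.82 and 9.77 in control replicates 1, 2 and 3. The groups overlapped, with 1 VPA array below the lowest control array. The difference was -0.08 (SE 0.0898, 95% interval -0.28 to 0.12, adjusted p = 0.677). Hat1 acetylates newly made histone H4 before it is placed on DNA. Its log2 values were 12.20, 12.28 and 12.25 in VPA replicates 1, 2 and 3, against 12.13, 12.03 and 12.24 in control replicates 1, 2 and 3. Here 2 VPA arrays lay above every control array, and VPA replicate 1 lay below control replicate 3. Its difference of 0.11 (SE 0.0874, 95% interval -0.09 to 0.31, adjusted p = 0.533) was the highest of the 9 genes.

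Crebbp encodes CBP, a coactivator that joins many transcription factors to the transcription machinery. It had log2 values of 11.67, 11.49 and 11.55 in VPA replicates 1, 2 and 3, against 11.85, 11.78 and 11.79 in control replicates 1, 2 and 3. All VPA arrays lay below the control arrays, by the smallest step for VPA replicate 1. The difference was -0.24 (SE 0.0857, 95% interval -0.43 to -0.05), which is 0.848-fold, with an adjusted p of 0.182. Its paralog Ep300 encodes p300, with a largely shared set of partners. Ep300 had log2 values of 11.32, 11.31 and 11.16 in VPA replicates 1, 2 and 3, against 11.27, 11.52 and 11.28 in control replicates 1, 2 and 3. The groups overlapped, and control replicate 2 stood above the other 5 arrays. The difference was -0.09 (SE 0.0992, 95% interval -0.31 to 0.13, adjusted p = 0.653). It was 0.04 without control replicate 2 and VPA replicate 3, so its direction rests on these arrays.

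**Figure D2:**
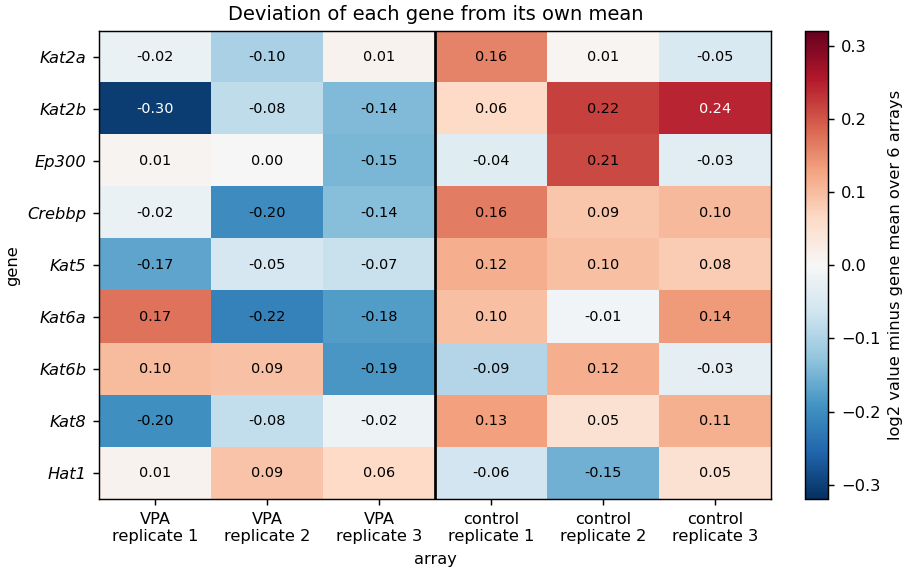
Deviation of each acetyltransferase gene (rows) from its own mean over the 6 arrays (columns, VPA left of the line and control right of it), on the log2 scale. Kat2b, Crebbp, Kat5 and Kat8 are below their mean on all VPA arrays and above it on all control arrays, whereas Kat6a is above its mean on VPA replicate 1 and Kat6b is below its mean on VPA replicate 3.

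In the MYST family, Kat5 encodes TIP60, which acetylates histone H4 and H2A and activates the kinase ATM after DNA breaks. Its log2 values were 8.94, 9.06 and 9.04 in VPA replicates 1, 2 and 3, against 9.23, 9.21 and 9.19 in control replicates 1, 2 and 3. The control arrays lay within an SD of 0.02 and the VPA arrays within an SD of 0.06. The difference was -0.20 (SE 0.0808, 95% interval -0.38 to -0.01), which is 0.873-fold, with an adjusted p of 0.239. Kat8 encodes MOF, the main acetyltransferase of one lysine of histone H4, found in the MSL and NSL complexes. It had log2 values of 8.67, 8.79 and 8.85 in VPA replicates 1, 2 and 3, against 8.997, 8.92 and 8.98 in control replicates 1, 2 and 3. VPA replicate 1 lay lowest, as it did for Kat2b and Kat5. The difference was -0.20 (SE 0.0859, 95% interval -0.39 to -0.002, adjusted p = 0.27).

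Kat6a and Kat6b encode MOZ and MORF, paralogs that acetylate histone H3 and act in blood stem cells and in development. Kat6a had log2 values of 10.53, 10.15 and 10.18 in VPA replicates 1, 2 and 3, against 10.46, 10.35 and 10.50 in control replicates 1, 2 and 3. VPA replicate 1 was the highest of the 6 arrays, while VPA replicates 2 and 3 were the lowest. The difference was -0.15 (SE 0.115, 95% interval -0.41 to 0.11, adjusted p = 0.524), with an SD of 0.21 among the VPA arrays against 0.08 among the control arrays. With VPA replicate 1, 2 or 3 left out it was -0.27, -0.08 or -0.10, and its adjusted p ran from 0.283 to 0.866 over the alternatives. Kat6b had log2 values of 9.82, 9.81 and 9.53 in VPA replicates 1, 2 and 3, against 9.62, 9.83 and 9.69 in control replicates 1, 2 and 3. Its difference was 0.01 (SE 0.107, 95% interval -0.23 to 0.25, adjusted p = 0.98) and is too near 0 to have a direction. It was -0.04 after a second quantile normalization, -0.01 with the arrays centred on their medians and below 0 with control replicate 1 or 3 or VPA replicate 1 or 2 left out.

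**Figure D3:**
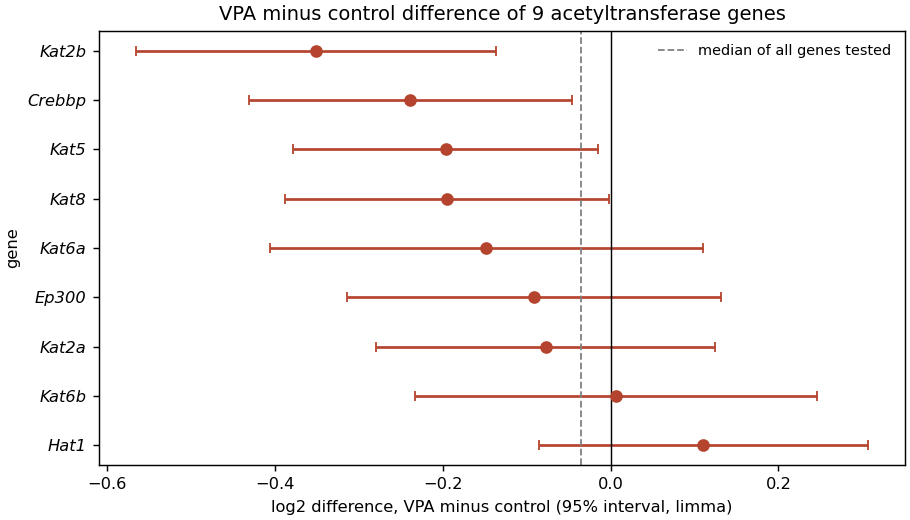
Difference of VPA minus control on the log2 scale (x axis) for each acetyltransferase gene, with its 95% interval from limma. The dashed line marks the median of all genes tested, -0.035; the intervals of Kat2b, Crebbp, Kat5 and Kat8 lie below 0 and those of the other 5 genes span it.

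In all, 3 pairs of paralogs were compared by their log2 difference on each array, which asks whether both genes of a pair moved equally. Kat2b minus Kat2a was -0.17, 0.14 and -0.04 in VPA replicates 1, 2 and 3, against 0.02, 0.33 and 0.40 in control replicates 1, 2 and 3. The groups overlapped at control replicate 1. The difference between the groups was -0.27 (95% interval -0.68 to 0.14, exact two-sided permutation p = 0.2). Crebbp minus Ep300 was 0.35, 0.18 and 0.39 in VPA replicates 1, 2 and 3, against 0.58, 0.26 and 0.52 in control replicates 1, 2 and 3. It differed by -0.15 (95% interval -0.48 to 0.18, exact p = 0.3), with replicate 2 lowest in both groups. Kat6a minus Kat6b was 0.71, 0.33 and 0.65 in VPA replicates 1, 2 and 3, against 0.83, 0.52 and 0.81 in control replicates 1, 2 and 3, a group difference of -0.15 (95% interval -0.59 to 0.28, exact p = 0.5). Adjusted over the 3 pairs the p-values were 0.45, 0.45 and 0.5, and 3 arrays against 3 cannot go below 0.1. Unequal change within a pair was therefore not shown for any of them, and the intervals leave room for it.

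**Figure D4:**
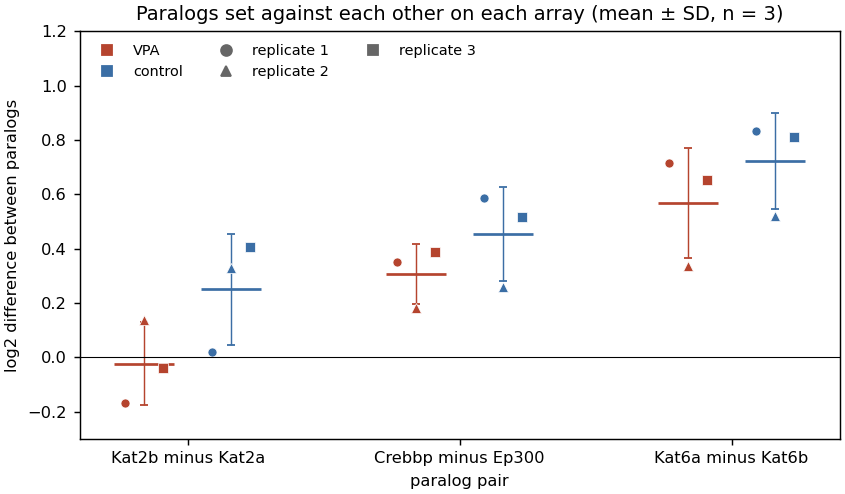
Log2 difference between the paralogs of each pair on each array, VPA in red left of control in blue, with the mean ± SD (n = 3). The groups overlap in all 3 pairs; the height of a pair reflects its probe sets and is not a comparison of transcript amounts.

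The acetyltransferases work with partner proteins, and 9 lists of such genes, with 126 of 129 distinct genes measured, were read from the same fit. The lists were written with earlier results of these data known. Their counts beside the shares of all genes therefore describe the lists and are no test. A gene that stands in several lists is counted in each. Of 17 genes of the Kat5 complex, 1 fell, none rose and 16 did not pass. Epc1, the enhancer of polycomb homolog that binds TIP60 into its complex, had log2 values of 9.61, 9.45 and 9.61 in VPA replicates 1, 2 and 3, against 10.14, 9.91 and 10.04 in control replicates 1, 2 and 3. The groups were apart, and Epc1 fell by 0.47 on the log2 scale (SE 0.0956, adjusted p = 0.0394). Epc1 passed without control replicate 2 or VPA replicate 3. It did not pass without control replicate 1 or 3 or VPA replicate 1 or 2 (adjusted p 0.155, 0.113, 0.112 and 0.151). With every probe set tested in place of 1 per gene, nothing lower with VPA passed, so Epc1 did not pass there either. Of the 17 genes, 16 were below 0, against 58.6% of all genes tested, and 7 did not overlap between the groups on the lower side, against 12%. The median was -0.12. No gene of the list was higher on every VPA array, against 11.1% of all genes.

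The list for the Kat6a and Kat6b complexes had 5 genes, and none passed limma's test, with 3 lower and 0 higher by unadjusted p under 0.05. Over all genes tested these shares were 8.3% lower and 9.82% higher, which is the background of each such count here. All 5 were below 0, against 58.6% of all genes, with a median of -0.25. Brpf3, a scaffold subunit with a bromodomain, averaged 7.95 ± 0.08 in VPA arrays and 8.37 ± 0.13 in control arrays (SD, n = 3 each), and its difference of -0.42 had an adjusted p of 0.0567. It passed in 6 of the 14 alternatives run for it, with adjusted p from 0.0321 to 0.202. Meaf6, a small subunit that the TIP60 complex shares, averaged 9.52 ± 0.02 in VPA arrays and 9.81 ± 0.08 in control arrays, with a difference of -0.29 (adjusted p = 0.111). Of the 11 genes of the Kat8 complexes none passed, with 3 lower and 0 higher by unadjusted p under 0.05 and a median of -0.05. Msl1, the scaffold of the MSL complex, and Hcfc1, a host cell factor in the NSL complex, differed by -0.34 and -0.29 (adjusted p 0.08 and 0.104).

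The 26 genes of the Kat2a and Kat2b complexes lay on both sides, with a median of -0.01. None passed limma's test, and by unadjusted p under 0.05 there were 5 higher, against 9.82% of all genes, and 7 lower, against 8.3%. Taf5l, a scaffold subunit of SAGA, averaged 7.25 ± 0.03 in VPA arrays and 7.62 ± 0.09 in control arrays, with a difference of -0.37 (adjusted p = 0.0574). It passed in 6 of 14 alternatives, with adjusted p from 0.036 to 0.205. Supt20, a subunit of the SAGA core, averaged 11.08 ± 0.07 in VPA arrays and 10.76 ± 0.03 in control arrays, with a difference of 0.31 (adjusted p = 0.0843). These SAGA subunits, neither of which passed, thus had differences of opposite sign. Of the 26 genes, 9 were lower on every VPA array than on any control array, against 12% of all genes. On the higher side there were 3, against 11.1%.

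Of 13 partners of p300 and CBP none passed, with a median of 0.03. By unadjusted p under 0.05 there were 2 higher, against 9.82% of all genes, and 2 lower, against 8.3%. Ncoa1, a nuclear receptor coactivator, had log2 values of 10.31, 10.23 and 9.90 in VPA replicates 1, 2 and 3, against 9.61, 9.86 and 9.67 in control replicates 1, 2 and 3. VPA replicate 3 lay near control replicate 2, and the difference was 0.44 (adjusted p = 0.102). Atf1, a transcription factor of the CREB family, differed by -0.28 (adjusted p = 0.151). For the 6 partners of Hat1, which carry or receive new histones, none passed, with 2 higher and 0 lower by unadjusted p under 0.05 and a median of -0.15. The histone chaperone genes Asf1a and Asf1b differed by 0.33 and 0.19 (adjusted p 0.159 and 0.275), whereas the difference of Rbbp7, the partner subunit of Hat1, was -0.22 (adjusted p = 0.355).

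**Figure D5:**
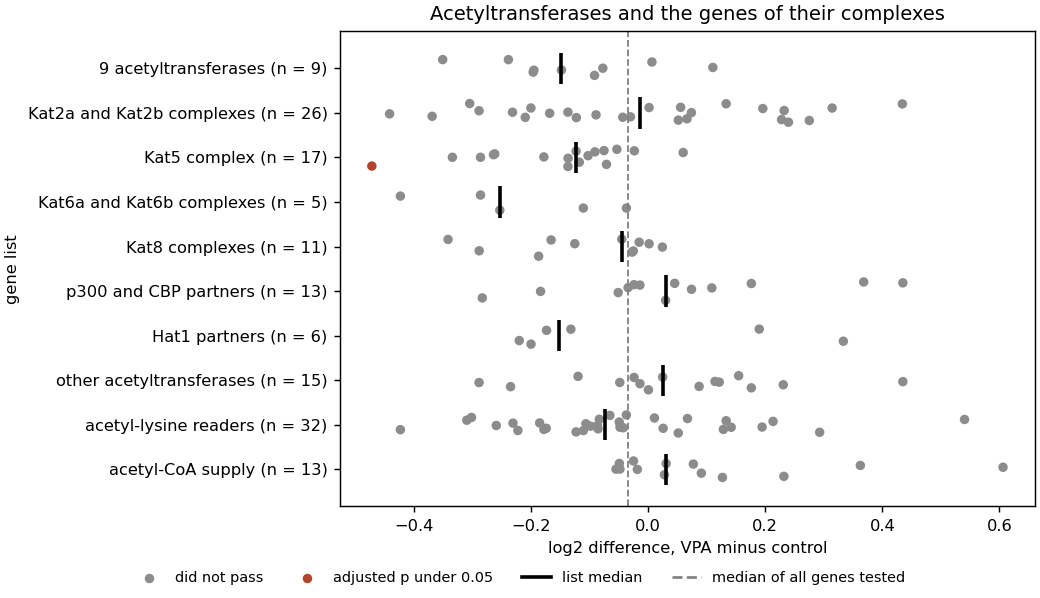
Difference of VPA minus control on the log2 scale (x axis) for each gene of the acetyltransferases and of 9 partner lists, with the list median as a black bar and the median of all genes tested as a dashed line. Each gene of a list is 1 point, and a gene in several lists has a point in each. Red marks the 1 gene with an adjusted p under 0.05, Epc1; all 5 genes of the Kat6a and Kat6b complexes and 16 of 17 of the Kat5 complex lie below 0.

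Among 15 other measured acetyltransferases none passed limma's test, and 2 were higher and 2 lower by unadjusted p under 0.05, with a median of 0.02. Kat7 (HBO1), the remaining MYST enzyme, had log2 values of 11.34, 11.38 and 11.48 in VPA replicates 1, 2 and 3, against 11.58, 11.66 and 11.66 in control replicates 1, 2 and 3. Like Kat5 and Kat8 it was lower on every VPA array, with a difference of -0.23 (SE 0.0834, adjusted p = 0.178). The 32 readers of acetylated lysine had a median of -0.07 and none that passed, with 2 higher and 5 lower by unadjusted p under 0.05. Mllt3, which encodes a YEATS domain reader of the super elongation complex, averaged 10.07 ± 0.26 in VPA arrays and 9.53 ± 0.06 in control arrays (adjusted p = 0.0603). It passed in 6 of 14 alternatives, with adjusted p from 0.0127 to 0.202. The 13 genes of acetyl-CoA supply had a median of 0.03, with none that passed. By unadjusted p under 0.05 there were 3 higher, against 9.82% of all genes, and 0 lower, against 8.3%. Acss2, the enzyme that makes acetyl-CoA from acetate in the nucleus and cytosol, had log2 values of 10.92, 10.83 and 10.54 in VPA replicates 1, 2 and 3, against 9.92, 10.48 and 10.07 in control replicates 1, 2 and 3. Control replicate 2 and VPA replicate 3 nearly met, and the difference was 0.61 (SE 0.154, 1.52-fold, adjusted p = 0.0781). It passed in 5 of 14 alternatives, with adjusted p from 0.00666 to 0.252. The citrate carrier gene Slc25a1 differed by 0.36 (adjusted p = 0.181).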

How the data were processed

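Total RNA was isolated with Trizol, cleared of DNA with DNase I and labelled with biotin from 300 ng, per the labels' protocols. The authors used RMA and Affymetrix Expression Console for the deposited log2 values, as the submitters' processing notes list them. The sources used here state no version or genome build. RMA gives the arrays a common distribution, so a shift of most transcripts one way would not show. The 6 arrays were grouped and numbered by their titles.

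Of 35556 probe sets 21789 had 1 gene symbol, 1621 several and 12146 were not listed in the platform annotation. Entrez identifiers were matched to RefSeq genes of GRCm38.p6, which named 21698 of these and altered 0 symbols. The probe set with the highest mean was kept for each of 19938 genes, with no other filter. The 9 acetyltransferases and the lists were chosen with earlier results of these data known. limma 3.58.1 in R 4.3.3 fitted the group alone (lmFit, eBayes), with two-sided tests, 95% intervals and Benjamini-Hochberg adjustment over all genes, and the threshold was an adjusted p under 0.05. The fit was tested on simulated data. From each list up to 2 changed genes in each direction were named or, where none changed, the 2 with the smallest p. Rbbp7 and the cell type markers Krt8, Epcam, Pbsn, Hoxb13, Thy1, Col3a1, Pdgfrb, Col1a1, Col1a2, Lum and Dcn were named in addition, after their values were seen. The same holds for Sox2, Klf4, Pou5f1, Nanog, Zfp42 and Stra8. The 3 genes most like Kat2b left out predicted and unnamed genes. Alternatives were a filter (log2 of at least 6 in at least 3 arrays), other normalizations, variance priors, array weights, the mean of probe sets, the replicate number as a block, a threshold of 0.01 and each array left out. After the data were seen, every probe set was also tested and control replicate 2 and VPA replicate 3 were left out together.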

Additional observations from a re-analysis of the deposited data

How the results depend on the processing

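No acetyltransferase passed the threshold in any alternative except Kat2b with the replicate number as a replicate block, where its adjusted p was 0.0404 at the same difference of -0.35, so that 1 of the 9 genes was called. The main fit did not take the numbers to pair the samples. Deviations of same-numbered arrays correlated at 0.0841, 0.451 and 0.284 for replicates 1, 2 and 3. Those of arrays with different numbers were mostly below 0. They ran from -0.429 (VPA replicate 3 with control replicate 2) to 0.200 (VPA replicate 3 with control replicate 1). Control replicate 1 correlated best with VPA replicate 3. These values do not settle whether the numbers pair the samples, so the block is given as an alternative. With that block 1199 genes were called over all genes, and 3 genes of the Kat2a and Kat2b complexes, 1 each of the Kat6a and Kat6b complexes, the Kat8 complexes, the other acetyltransferases and acetyl-CoA supply, and 2 each of the p300 and CBP partners and the acetyl-lysine readers. Here Brpf3 counts in both the Kat6a and Kat6b complexes and the readers. Ncoa1 counts in both the p300 and CBP partners and the other acetyltransferases. Over the 15 alternatives the adjusted p of Kat2b ran from 0.0404 to 0.279 and its difference from -0.41 to -0.29. Kat2a, Crebbp, Kat5, Kat6a, Kat8 and Hat1 kept their direction in all 15, but some sizes rested on single arrays. Kat2a was at -0.02 without control replicate 1, -0.04 without VPA replicate 2 and -0.12 without control replicate 3, and Hat1 was at 0.06 without control replicate 2. Ep300 was at -0.01 without control replicate 2 and at -0.04 without VPA replicate 3. Ep300 turned to 0.04 with control replicate 2 and VPA replicate 3 both left out. Kat6b turned to -0.037 with a second quantile normalization and to -0.014 with median centring, and ran from -0.043 to 0.10 with single arrays left out. The 3 paralog contrasts kept their sign in every setting tried, and with single arrays left out they ran from -0.39 to -0.20 for Kat2b minus Kat2a, from -0.24 to -0.08 for Crebbp minus Ep300 and from -0.26 to -0.04 for Kat6a minus Kat6b. Taken within replicate numbers the means of these contrasts are the same and the spread is smaller. The 95% intervals were then -0.64 to 0.09, -0.34 to 0.05 and -0.23 to -0.07, with all 3 differences below 0 in each pair, and the exact sign-flip p was 0.25 for each, the smallest that 3 differences allow. Of the other named genes, Ncoa1 passed in 3, Slc25a1 in 2 and Msl1 and Supt20 in 1 of 14 alternatives.

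Over all genes 467 were called, against 645 with the low value filter, 504 with a second quantile normalization and 471 with median centring. There were 683 with the trended prior, 714 with array weights, 20 to 815 with single arrays left out and 1349 with both arrays left out. With every probe set tested 2 passed, both higher with VPA. No acetyltransferase was called in these settings. The calls in the partner lists moved with the setting, by 1 to 3 genes, except those of the Hat1 partners, which stayed at 0. The number called over all genes moved as well, so each list count is to be read beside that number and is no test. The lists were not counted with every probe set tested. The readers had 2 calls with the low value filter, with the trended prior, with array weights and with both arrays left out, 1 with a second quantile normalization or median centring and 0 to 1 with single arrays left out. The Kat2a and Kat2b complexes had 1 call with the filter, either normalization or array weights, 2 with the trended prior or with both arrays left out and 0 to 1 with single arrays left out. The Kat6a and Kat6b complexes had 1 call, Brpf3, with the filter, either normalization, the trended prior or array weights. Acetyl-CoA supply had 1 call with array weights, 2 with both arrays left out and 0 to 2 with single arrays left out. The p300 and CBP partners had 2 and the other acetyltransferases 1 with both arrays left out, and each had 0 to 1 with single arrays left out. The Kat5 complex had 2 with both arrays left out and 0 to 1 with single arrays left out. The cause of these shifts was not tested. The values carry no measure of signal over background, so the limit set by low signal cannot be given.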
